A study of Mus musculus with 6 samples.

Results

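The levels of 9 quiescence genes were measured in LT-HSCs, the long-term haematopoietic stem cells, sorted from mouse bone marrow: the transcription factor genes Klf2, Klf4, Klf6, Nr4a1 and Nr4a2, the transcriptional co-regulator gene Cited2, and the cell cycle brakes Btg1, Ccng2 and Rbl2. They were chosen by symbol as genes tied to stem cell rest, and all 9 were found among the 23235 genes of the deposited table. The Hmces knockout group (genotype label Hmces knockout) and the wild-type (WT) group each held 3 libraries, all from C57BL/6 mice aged 2 months. Each library was made from 1500 sorted cells with the Smart-seq2 method. The titles of the libraries of both genotypes carry a 13bp tag whose meaning is not given in the sources used here, and neither the knockout allele, the sorting gates nor whether the libraries came from separate mice is stated. All p-values therefore measure only the spread between these libraries, which may be technical.

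Most LT-HSCs in an adult mouse are out of cycle, and their rest is held by transcription factors and by proteins that block entry into S phase. KLF factors are zinc-finger proteins that bind GC-rich and CACCC elements, and KLF2 is best known for keeping naive T cells quiescent. NR4A factors are orphan nuclear receptors whose genes respond within minutes to signals and which restrain the proliferation of stem cells in mice. CITED2 competes with HIF-1 for CBP and p300 and is needed for the maintenance of mouse haematopoietic stem cells. BTG1 brings the CCR4-NOT deadenylase to mRNAs, cyclin G2 slows the cycle and is a FoxO target, and RBL2 (p130) is the pocket protein of the DREAM complex, which represses cell cycle genes in resting cells.

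Values are FPKM, fragments per kilobase of transcript scaled to the mapped fragments of each library, so levels can be set side by side between genes. Estimated depth was 9300000 to 11200000 fragments in knockout libraries and 9700000 to 14200000 in WT libraries. Hmces, listed as 8430410A17Rik, was at 8.95, 0.222 and 6.95 FPKM in the knockout libraries, against 39.5, 45.4 and 41.0 FPKM in the WT libraries, so that all 3 knockout libraries lay below all WT libraries. Its log2 fold change of -3.23 (SE 0.71, unadjusted p = 0.00192) had a limma adjusted p of 0.289, so that the targeted gene itself was not called at the threshold of 0.05 used below. Knockout replicate 2 scored 66.98 on the first principal component of all tested genes, where the other 5 libraries scored -33.65 to 10.14. Of the LT-HSC markers, Hlf was at 10.6 ± 0.264 FPKM in knockout and 9.88 ± 1.33 FPKM in WT libraries and Procr at 23.6 ± 9.51 and 26.8 ± 5.63 FPKM, whereas Fgd5 and Hoxb5 had means below 1 FPKM in both genotypes. Esam was higher in knockout without overlap, at 134 ± 18.0 and 66.0 ± 4.87 FPKM (limma adjusted p = 0.0702). So was Ly6a, at 311 ± 48.8 and 231 ± 21.7 FPKM (limma adjusted p = 0.488). Of the 12 LT-HSC markers tested, 5 had a positive and 7 a negative log2 fold change. Transcripts of Flt3 and Cd48, markers of progenitors that published LT-HSC gates commonly exclude, were abundant. Flt3 was at 141 FPKM in knockout and 137 FPKM in WT libraries and Cd48 at 279 and 180 FPKM (means, n = 3 each). The Flt3 groups overlapped, and Cd48 was higher in knockout without overlap (limma adjusted p = 0.324). Another progenitor marker, Fcgr3, was also higher without overlap, at 26.3 ± 6.76 and 5.56 ± 1.79 FPKM (limma adjusted p = 0.0702). Of the 5 progenitor markers tested, 4 had a positive and 1 a negative log2 fold change.

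No difference between Hmces knockout and WT LT-HSCs was detected in any of the quiescence genes. None of the 9 was called over all genes (limma, adjusted p under 0.05), where 0.113% of the 11532 tested genes were (0.104% higher and 0.00867% lower in knockout). None had an unadjusted p under 0.05 either, against 9.16% of all genes (4.32% higher and 4.84% lower). In none of them did the 3 knockout and the 3 WT libraries separate without overlap, against 15.8% of all genes (7.47% higher and 8.34% lower). The log2 fold change, taken as knockout minus WT of log2(FPKM + 1), was positive for 7 genes and negative for 2, and lay between -0.17 for Klf6 and 0.57 for Klf2. The median over the 9 was 0.19, beside -0.01 over all genes tested, of which 48.1% were positive. Summed over the 9 genes, the level was 210.4, 183 and 233 FPKM in the knockout libraries and 192, 207 and 156 FPKM in the WT libraries, so that the groups overlapped. Without knockout replicate 2, none of the 9 was called, 8 were positive and the median was 0.33. Without knockout replicate 1, 5 were positive and the median was 0.15, and without WT replicate 3, 6 were positive and the median was 0.12, with none called in either case. The log2 fold change without knockout replicate 2 was -0.15 for Klf6, 0.33 for Nr4a1, 0.54 for Nr4a2, 0.14 for Cited2, 0.24 for Btg1 and 0.28 for Rbl2.

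**Figure D1:**
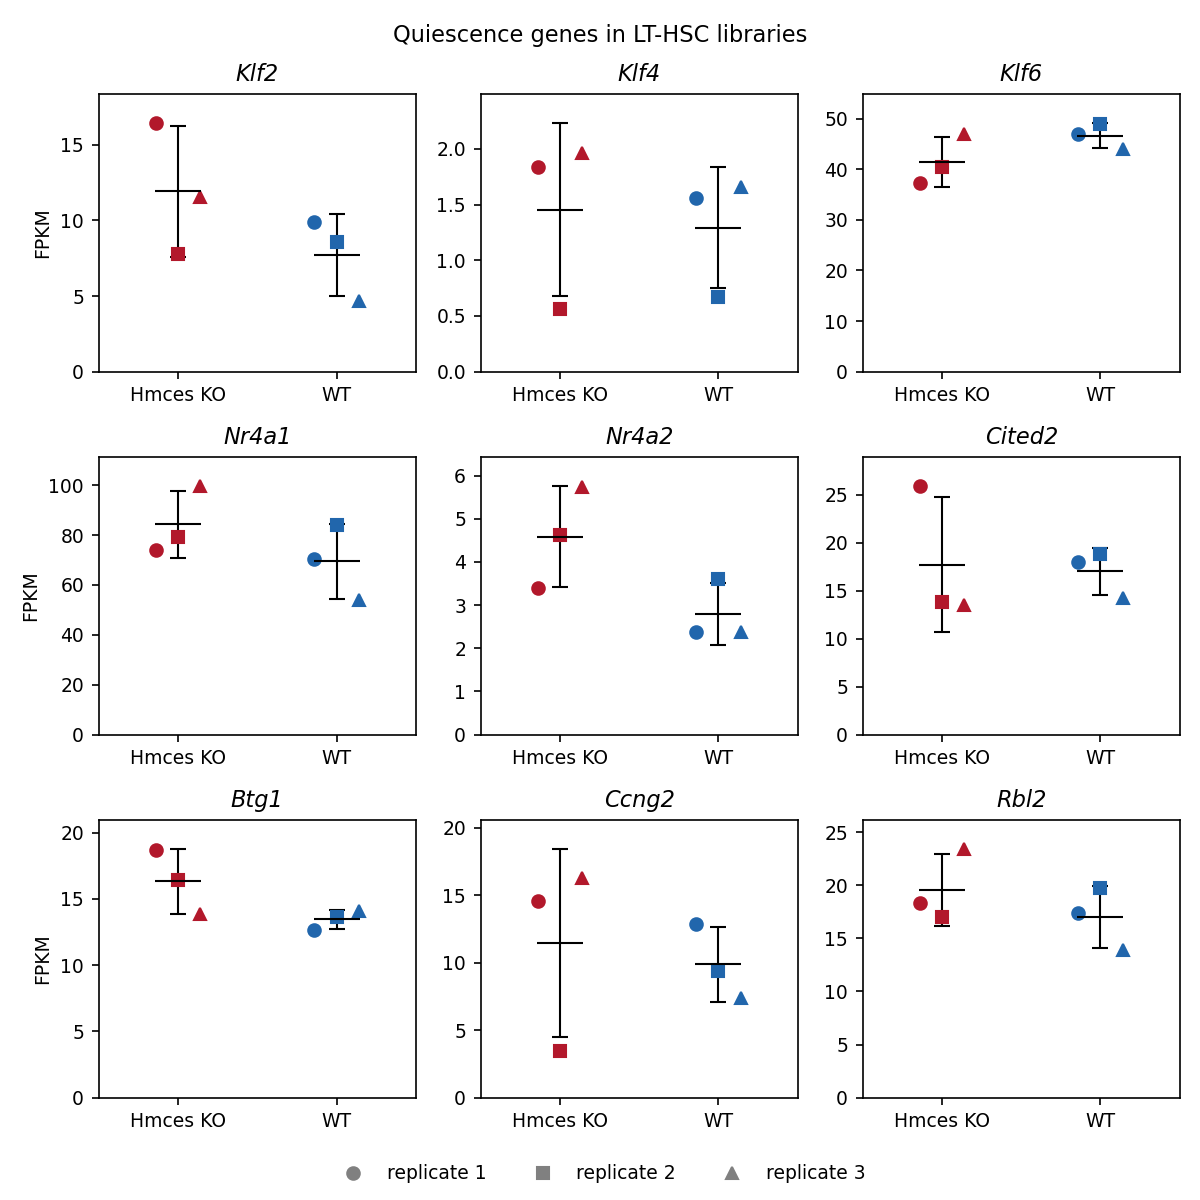
FPKM of each of the 9 quiescence genes in the 3 Hmces knockout libraries (red, left) and the 3 WT libraries (blue, right); marker shape gives the replicate number, the dash the mean and the bar the SD. In every panel the groups overlap, from the closely spaced values of Klf6 (37.2 to 48.9 FPKM) to Ccng2, where knockout replicate 2 lies at 3.46 FPKM.

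The 9 genes spanned a wide range of levels in these cells. Averaged over the 6 libraries, Nr4a1 was the most abundant at 76.9 FPKM, followed by Klf6 at 44.0, Rbl2 at 18.3, Cited2 at 17.4, Btg1 at 14.9, Ccng2 at 10.7, Klf2 at 9.81, Nr4a2 at 3.69 and Klf4 at 1.37 FPKM. Nr4a1 lay above 86.0% of the tested genes in mean level, and Klf4 above 4.39%. Nr4a1 and Klf6 did not overlap with each other or with any other member in any library. The ranges of Rbl2, Cited2 and Btg1 overlapped with each other, as did those of Btg1 and Ccng2 and those of Ccng2 and Klf2. The order of these neighbours is not resolved. The ranges of Klf2 and Nr4a2 overlapped as well, but Klf2 was above Nr4a2 within each of the 6 libraries. Klf4 stayed below every value of the other 8 genes.

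Klf2, the shear-responsive factor of endothelium and of resting lymphocytes, was at 16.4, 7.79 and 11.6 FPKM in the knockout libraries, against 9.88, 8.57 and 4.65 FPKM in the WT libraries. Knockout replicates 1 and 3 were above every WT library, while knockout replicate 2 lay among them. The mean was 11.9 ± 4.32 FPKM in knockout and 7.70 ± 2.72 FPKM in WT cells (SD, n = 3 each), a log2 fold change of 0.57 (SE 0.35, 95% interval -0.25 to 1.38; limma adjusted p = 0.668). The log2 fold change was 0.82 without knockout replicate 2 (limma adjusted p = 0.564), 0.33 without knockout replicate 1 (adjusted p = 0.749) and 0.29 without WT replicate 3 (adjusted p = 0.867). An estimated 109 to 257 fragments per library stood behind these values.

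Klf4, a reprogramming factor that is also a brake on division in several tissues, was near the lower limit of the genes tested. It was at 1.84, 0.564 and 1.96 FPKM in the knockout libraries, against 1.56, 0.668 and 1.65 FPKM in the WT libraries. Replicate 2 was low in both genotypes and the other 4 libraries lay close together. An estimated 18 to 66 fragments per library stood behind these values. The log2 fold change was 0.07 (SE 0.41, 95% interval -0.88 to 1.02; limma adjusted p = 0.973), so that these libraries did not exclude a difference of either sign within this interval. Without knockout replicate 2 it was 0.37 (adjusted p = 0.733).

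Klf6, a broadly expressed immediate early KLF, had the smallest spread of the set. It was at 37.2, 40.3 and 46.9 FPKM in the knockout libraries, against 46.9, 48.9 and 44.0 FPKM in the WT libraries. Knockout replicates 1 and 2 lay below all WT libraries and knockout replicate 3 among them. The mean was 41.5 ± 4.93 FPKM in knockout and 46.6 ± 2.45 FPKM in WT cells (SD, n = 3 each), a log2 fold change of -0.17 (SE 0.14, 95% interval -0.50 to 0.17; limma adjusted p = 0.741). It was -0.10 without knockout replicate 1 and -0.26 without knockout replicate 3. This interval was the narrowest of the 9 genes.

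Within the KLF family of 17 genes in the table, Klf2, Klf4 and Klf6 together made up 29.8% ± 5.31 of the summed KLF level in knockout and 30.1% ± 4.31 in WT libraries (SD, n = 3 each). The sum itself was 186 ± 17.6 FPKM in knockout and 186 ± 15.9 FPKM in WT libraries. Klf10, a TGF-beta-inducible repressor, was the most abundant at 45.4 ± 7.997 FPKM in knockout and 47.8 ± 4.77 FPKM in WT libraries, and its range overlapped with that of Klf6. Klf13 followed at 35.7 ± 9.95 FPKM in knockout and 29.3 ± 2.89 FPKM in WT libraries, and Klf1, the erythroid KLF, stood at 14.6 ± 4.07 and 13.0 ± 6.89 FPKM. Of the other 14 KLF genes, 9 were tested, 3 with a positive and 6 with a negative log2 fold change (median -0.15), and none was called or had an unadjusted p under 0.05. The smallest p-values were those of Klf16, at 4.23 ± 1.03 FPKM in knockout and 6.94 ± 1.64 FPKM in WT cells (log2 fold change -0.60, limma adjusted p = 0.582), and of Klf11, at 12.1 ± 1.59 and 15.3 ± 2.59 FPKM (-0.31, adjusted p = 0.703).

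NR4A genes are known targets of the cAMP-responsive factor CREB. For this reason the promoters of Nr4a1 and Nr4a2 are shown, as the 250 bases before the RefSeq start site (build GRCm38.p6), with each match to the core of the CREB site, TGACG on either strand (CGTCA on the opposite one), in capitals. The Nr4a1 window is chr15:101266596-101266845 on the plus strand and the Nr4a2 window is chr2:57124004-57124253 on the minus strand, both read 5′ to 3′ on the strand of the gene.
Nr4a1: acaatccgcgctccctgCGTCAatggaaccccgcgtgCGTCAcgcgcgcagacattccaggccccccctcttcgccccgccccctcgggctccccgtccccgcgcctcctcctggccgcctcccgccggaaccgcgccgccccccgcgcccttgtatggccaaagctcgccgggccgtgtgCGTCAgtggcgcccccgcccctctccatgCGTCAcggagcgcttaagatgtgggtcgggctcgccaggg
Nr4a2: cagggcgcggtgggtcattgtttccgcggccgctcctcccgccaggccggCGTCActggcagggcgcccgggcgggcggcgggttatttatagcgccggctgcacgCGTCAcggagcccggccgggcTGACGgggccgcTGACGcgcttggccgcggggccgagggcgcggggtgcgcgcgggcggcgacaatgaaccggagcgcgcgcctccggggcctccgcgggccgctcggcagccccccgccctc
Each window held 4 matches, which begin 233, 213, 69 and 40 bases before the start of Nr4a1 and 200, 144, 123 and 111 bases before that of Nr4a2. Of all 32851 RefSeq promoter windows of this length, 17.8% held at least 1 match and 0.137% held 4 or more. Klf2, Klf4 and Btg1 had 1, 1 and 2 matches, and Klf6, Cited2, Ccng2 and Rbl2 had none. The full palindromic CREB site, TGACGTCA, was in none of the 9 windows and in 1.55% of all windows. These windows were GC-rich, at 74.4% for Nr4a1 and 80.0% for Nr4a2, against a median of 52.4% over all windows, and a match is a run of letters and not a measured site.

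Nr4a1, which encodes NUR77, was at 74.1, 79.3 and 99.5 FPKM in the knockout libraries, against 70.4, 83.9 and 53.9 FPKM in the WT libraries. Knockout replicate 3 was the highest library and WT replicate 3 the lowest, with the other 4 mixed between them. The mean was 84.3 ± 13.4 FPKM in knockout and 69.4 ± 14.998 FPKM in WT cells (SD, n = 3 each), a log2 fold change of 0.29 (SE 0.19, 95% interval -0.16 to 0.73; limma adjusted p = 0.696). It was 0.16 without knockout replicate 3, 0.12 without WT replicate 3 (adjusted p = 0.884) and 0.43 without WT replicate 2.

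Nr4a2, which encodes NURR1, was at 3.39, 4.62 and 5.73 FPKM in the knockout libraries, against 2.38, 3.61 and 2.38 FPKM in the WT libraries. Knockout replicates 2 and 3 were above all WT libraries, and knockout replicate 1 lay just under WT replicate 2. The mean was 4.58 ± 1.17 FPKM in knockout and 2.79 ± 0.709 FPKM in WT cells (SD, n = 3 each), a log2 fold change of 0.55 (SE 0.31, 95% interval -0.17 to 1.27; limma adjusted p = 0.633), the smallest p of the set. An estimated 78 to 180 fragments per library stood behind these values.

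Within each library there was far more Nr4a1 than Nr4a2. The ratio of the FPKM of Nr4a1 to that of Nr4a2 was 21.8, 17.2 and 17.4 in the knockout libraries, against 29.6, 23.2 and 22.6 in the WT libraries, so that every knockout ratio lay below every WT ratio. This ratio was looked at after the values were seen, and 3 against 3 libraries can give no exact two-sided permutation p below 0.1. It was picked from several such ratios between related genes. The ratio of Btg1 to Btg2 also separated, at 0.257, 0.242 and 0.127 in knockout and 0.279, 0.270 and 0.323 in WT libraries. The remaining ratios overlapped between the genotypes. Nr4a3, the third NR4A gene, was at 0.498 FPKM or less in all 6 libraries and below the level tested.

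Cited2 was at 25.9, 13.8 and 13.5 FPKM in the knockout libraries, against 18.0, 18.9 and 14.2 FPKM in the WT libraries. Knockout replicate 1 was the highest library and the other knockout libraries were the lowest, so the knockout values lay on both sides of the WT values. The mean was 17.7 ± 7.07 FPKM in knockout and 17.03 ± 2.47 FPKM in WT cells (SD, n = 3 each), a log2 fold change of 0.00 (SE 0.28, 95% interval -0.64 to 0.65; limma adjusted p = 0.999) that was -0.29 without knockout replicate 1 (adjusted p = 0.621). Around CITED2, the list of CBP, p300, HIF factors and HIF target genes had 9 tested genes, 6 with a positive log2 fold change, and none was called. Slc2a1, the glucose transporter gene GLUT1, had the smallest p at 18.9 ± 4.07 FPKM in knockout and 10.0 ± 1.89 FPKM in WT cells (log2 fold change 0.85, unadjusted p = 0.00707, limma adjusted p = 0.385), and Arnt, the partner of HIF1A, was next at 18.4 ± 3.55 and 13.1 ± 5.45 FPKM (adjusted p = 0.666).

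Btg1 was at 18.7, 16.4 and 13.8 FPKM in the knockout libraries, against 12.6, 13.7 and 14.1 FPKM in the WT libraries. Knockout replicates 1 and 2 were above all WT libraries, and knockout replicate 3 was within the narrow WT range. The mean was 16.3 ± 2.43 FPKM in knockout and 13.4 ± 0.730 FPKM in WT cells (SD, n = 3 each), a log2 fold change of 0.25 (SE 0.19, 95% interval -0.20 to 0.70; limma adjusted p = 0.718). It was 0.15 without knockout replicate 1 and 0.36 without knockout replicate 3. Its promoter was the only one of the 9 with a match to the FoxO site TGTTTAC, found in 3.17% of all windows. It is shown because FoxO3 is a known regulator of Btg1, as the 250 bases before the RefSeq start (GRCm38.p6, chr10:96616751-96617000, plus strand), with the FoxO match, 204 bases before the start, and both TGACG matches in capitals.
Btg1: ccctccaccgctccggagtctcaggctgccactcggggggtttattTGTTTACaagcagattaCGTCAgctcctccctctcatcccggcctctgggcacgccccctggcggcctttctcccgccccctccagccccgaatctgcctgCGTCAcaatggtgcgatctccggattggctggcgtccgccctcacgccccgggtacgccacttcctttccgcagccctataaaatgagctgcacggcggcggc

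Relatives and partners of BTG1 were not called either. Btg2, the close relative of Btg1 and a p53 and immediate early target, was at 72.9, 67.8 and 109 FPKM in the knockout libraries, against 45.4, 50.5 and 43.5 FPKM in the WT libraries. Its groups did not overlap, and its log2 fold change was 0.80 (SE 0.19, unadjusted p = 0.00345), with a limma adjusted p of 0.324. Tob1, of the same antiproliferative family, was at 22.9 ± 4.91 FPKM in knockout and 17.2 ± 3.47 FPKM in WT cells (adjusted p = 0.645). Of 8 other NR4A, CITED and BTG/TOB genes, 4 were tested (Cited4, Btg2, Tob1 and Tob2), all 4 with a positive log2 fold change, and 1 had an unadjusted p under 0.05. The 8 genes summed to 116 to 156 FPKM in knockout and 83.3 to 95.4 FPKM in WT libraries, without overlap. Btg2 made up most of this sum, with means of 83.3 FPKM in knockout and 46.5 FPKM in WT libraries. This list of 8 genes too was chosen with earlier results known, and no p-value is given for its sum. The 12 genes of the CCR4-NOT deadenylase and PRMT1 had a median log2 fold change of 0.14, 9 of them positive. Cnot4 had the smallest p, at 13.3 ± 3.65 FPKM in knockout and 8.18 ± 0.762 FPKM in WT cells (limma adjusted p = 0.533), followed by the deadenylase gene Cnot6 at 6.87 ± 1.62 and 4.72 ± 0.984 FPKM (adjusted p = 0.677).

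Ccng2 was the most variable of the 9 genes. It was at 14.6, 3.46 and 16.3 FPKM in the knockout libraries, against 12.9, 9.38 and 7.35 FPKM in the WT libraries. Knockout replicates 1 and 3 were above every WT library, and knockout replicate 2 was below every WT library. The mean was 11.4 ± 6.96 FPKM in knockout and 9.87 ± 2.80 FPKM in WT cells (SD, n = 3 each), with a log2 fold change of -0.00 (SE 0.51, 95% interval -1.18 to 1.18; limma adjusted p = 0.9995). Without knockout replicate 2 the log2 fold change was 0.63 (SE 0.28, adjusted p = 0.565). Knockout replicate 2 was also the library with the least Hmces transcript, 0.222 FPKM. The part of that library in this value was not tested beyond leaving it out. The within-group SD of Ccng2, 0.81 on the log2 scale, was larger than that of 93.0% of the tested genes. Its relative Ccng1, a p53 target, varied less, at 34.4 ± 3.75 FPKM in knockout and 27.2 ± 2.48 FPKM in WT cells (limma adjusted p = 0.588). All knockout libraries lay above all WT libraries for Ccng1.

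Rbl2 was at 18.3, 16.99 and 23.4 FPKM in the knockout libraries, against 17.4, 19.7 and 13.9 FPKM in the WT libraries. Knockout replicate 3 was highest and WT replicate 3 lowest, and the other 4 lay between 16.99 and 19.7 FPKM. The mean was 19.5 ± 3.37 FPKM in knockout and 17.02 ± 2.93 FPKM in WT cells (SD, n = 3 each), a log2 fold change of 0.19 (SE 0.21, 95% interval -0.30 to 0.68; limma adjusted p = 0.806). It was 0.06 without knockout replicate 3, 0.06 without WT replicate 3 and 0.30 without WT replicate 2. Of the pocket protein genes, Rbl1 (p107) was at 21.0 ± 8.41 FPKM in knockout and 24.0 ± 2.51 FPKM in WT cells, and Rb1 at 1.26 ± 1.29 and 1.04 ± 0.116 FPKM. The ranges of Rbl2 and Rbl1 overlapped, and Rb1 was lower than both in every library. Among the 12 genes of the RBL2 partner list, 8 had a negative log2 fold change (median -0.27), with Tfdp1, the DNA-binding partner of E2F factors, at 79.1 ± 15.7 FPKM in knockout and 103 ± 13.8 FPKM in WT cells (limma adjusted p = 0.553) and E2f5 at 2.68 ± 1.60 and 4.74 ± 1.62 FPKM (adjusted p = 0.664). None of the 12 was called or had an unadjusted p under 0.05. Their summed level was 297 to 343 FPKM in knockout and 352 to 386 FPKM in WT libraries, without overlap. The list was chosen with earlier results of these data known, so no p-value is given for this sum.

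**Figure D2:**
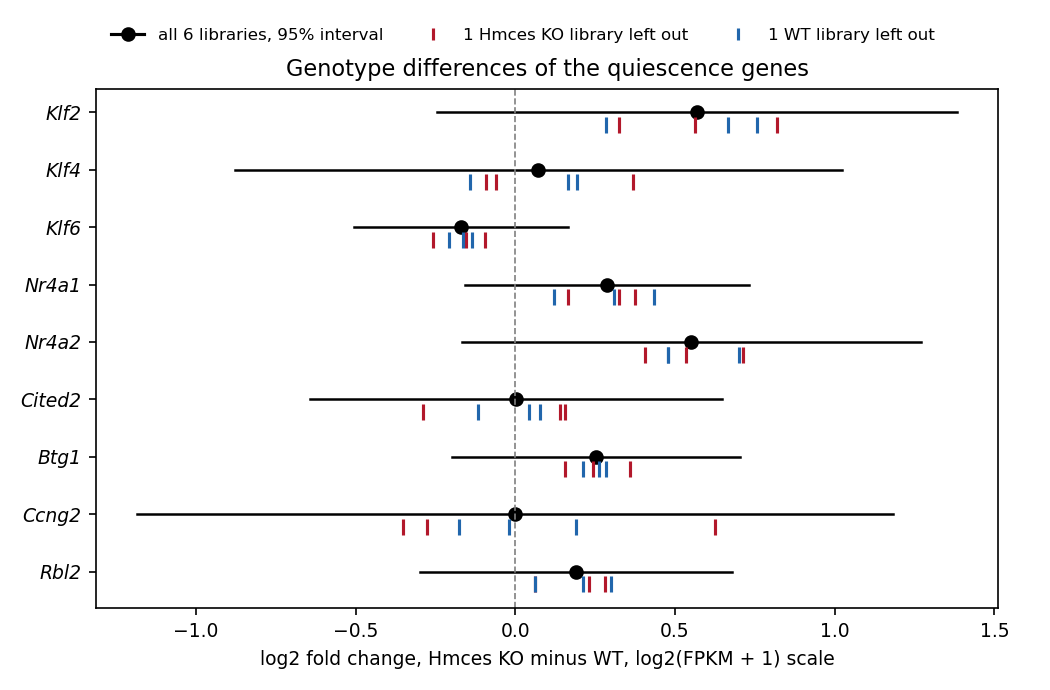
Log2 fold change (Hmces knockout minus WT, log2(FPKM + 1) scale) of each quiescence gene with all 6 libraries (black point) and its 95% interval (line); small ticks below give the value with 1 knockout library (red) or 1 WT library (blue) left out. Every interval includes 0, and the ticks of Klf4, Cited2 and Ccng2 lie on both sides of 0.

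The libraries in which the genes were high or low differed from gene to gene. Knockout replicate 3 was the highest library for 5 genes (Klf4, Nr4a1, Nr4a2, Ccng2 and Rbl2), knockout replicate 1 for 3 (Klf2, Cited2 and Btg1) and WT replicate 2 for Klf6. WT replicate 3 was the lowest for Klf2, Nr4a1 and Rbl2, and 7 of the 9 genes lay below their own mean there. In knockout replicate 2, 6 of 9 genes lay below their own mean, with Ccng2 lowest at -1.25 on the log2 scale. Nr4a1 and Rbl2 had the most similar profiles within the set, with a root mean square difference of 0.0874 on the log2(FPKM + 1) scale over the 6 libraries after each gene was centred on its own mean. For Nr4a2 the nearest member was Nr4a1, at 0.189. For Klf2, Klf4, Klf6, Cited2, Btg1 and Ccng2 the nearest member lay at 0.217 or more, and that member ranked 326 or lower among all genes.

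**Figure D3:**
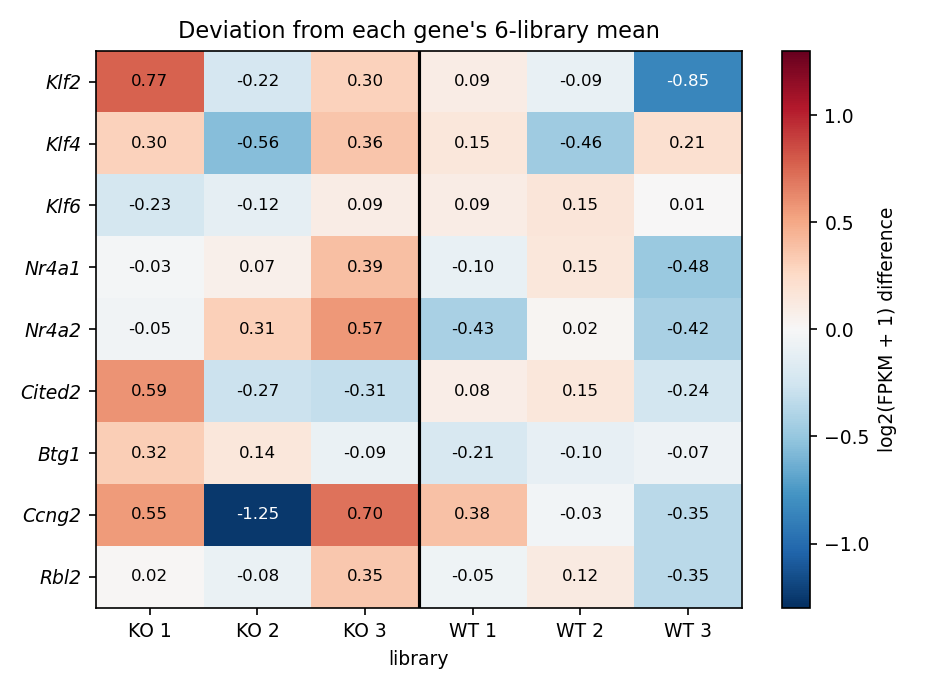
Log2(FPKM + 1) of each quiescence gene (rows) in each library (columns, Hmces knockout left of WT) minus the gene's mean over the 6 libraries. Ccng2 in knockout replicate 2 (-1.25) and Klf2 in WT replicate 3 (-0.85) are the lowest cells, and Klf2 in knockout replicate 1 (0.77) is the highest.

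By the same measure over 6 libraries, the gene nearest to each member among all tested genes was Ppp1r26 for Klf2 (0.13), Dnajc28 for Klf4 (0.0814), Tgfbr2 for Klf6 (0.0334), Arhgap25 for Nr4a1 (0.0721), Gje1 for Nr4a2 (0.0724), Smarca5 for Cited2 (0.0591), Naa35 for Btg1 (0.0361), Ints12 for Ccng2 (0.155) and Acad8 for Rbl2 (0.0199). With 6 points per gene, close profiles occur among unrelated genes. Tgfbr2, which encodes a TGF-beta receptor, was at 17.4 ± 2.34 FPKM in knockout and 20.2 ± 0.812 FPKM in WT cells, with a log2 fold change of -0.21 beside -0.17 for Klf6. Ints12, an Integrator subunit gene, was also low in knockout replicate 2, at 10.4, 2.53 and 12.2 FPKM in the knockout libraries, against 11.01, 8.76 and 7.19 FPKM in the WT libraries.

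Genes known to act upstream or downstream of the 9 were not called either, and an unadjusted p under 0.05 was found for 1 gene of the FoxO list, 1 of the KLF2 target list and none of the cell cycle brake and DREAM target lists. FoxO factors and FoxO targets had 12 tested genes, 6 with a positive and 6 with a negative log2 fold change (median 0.07). Txnip, which encodes a thioredoxin inhibitor that limits glucose uptake, had the smallest p in this list, at 174 ± 16.4 FPKM in knockout and 142 ± 10.7 FPKM in WT cells (unadjusted p = 0.0420, limma adjusted p = 0.534). The cell cycle inhibitor gene Cdkn1b (p27) was next, at 31.4 ± 3.98 and 24.8 ± 2.71 FPKM (adjusted p = 0.604). Neither gene's groups overlapped. The 12 genes of the cyclin G and cell cycle brake list divided into 6 positive and 6 negative (median 0.01), with Ccng1 and then Fbxw7, a ubiquitin ligase gene that limits MYC, at the smallest p. Fbxw7 was at 2.92 ± 1.295 FPKM in knockout and 1.44 ± 0.301 FPKM in WT cells (adjusted p = 0.626).

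DREAM-repressed cell cycle genes, which RBL2 helps to keep silent in resting cells, had 10 positive and 8 negative log2 fold changes among 18 tested (median 0.02). The mitotic kinase gene Aurka was at 47.6 ± 4.43 FPKM in knockout and 37.4 ± 5.43 FPKM in WT cells (limma adjusted p = 0.566), and Aurkb at 64.3 ± 0.771 and 76.6 ± 4.93 FPKM (adjusted p = 0.577), so the pair had opposite signs. The sum over the 18 genes was 849 to 947 FPKM in knockout and 888 to 957 FPKM in WT libraries. KLF2 target genes of blood cells had 5 of 7 tested genes positive (median 0.21). Il7r, the interleukin-7 receptor gene, was at 5.84, 5.12 and 5.02 FPKM in the knockout libraries, against 1.81, 1.09 and 2.03 FPKM in the WT libraries (log2 fold change 1.28, unadjusted p = 0.00277, limma adjusted p = 0.313).

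**Figure D4:**
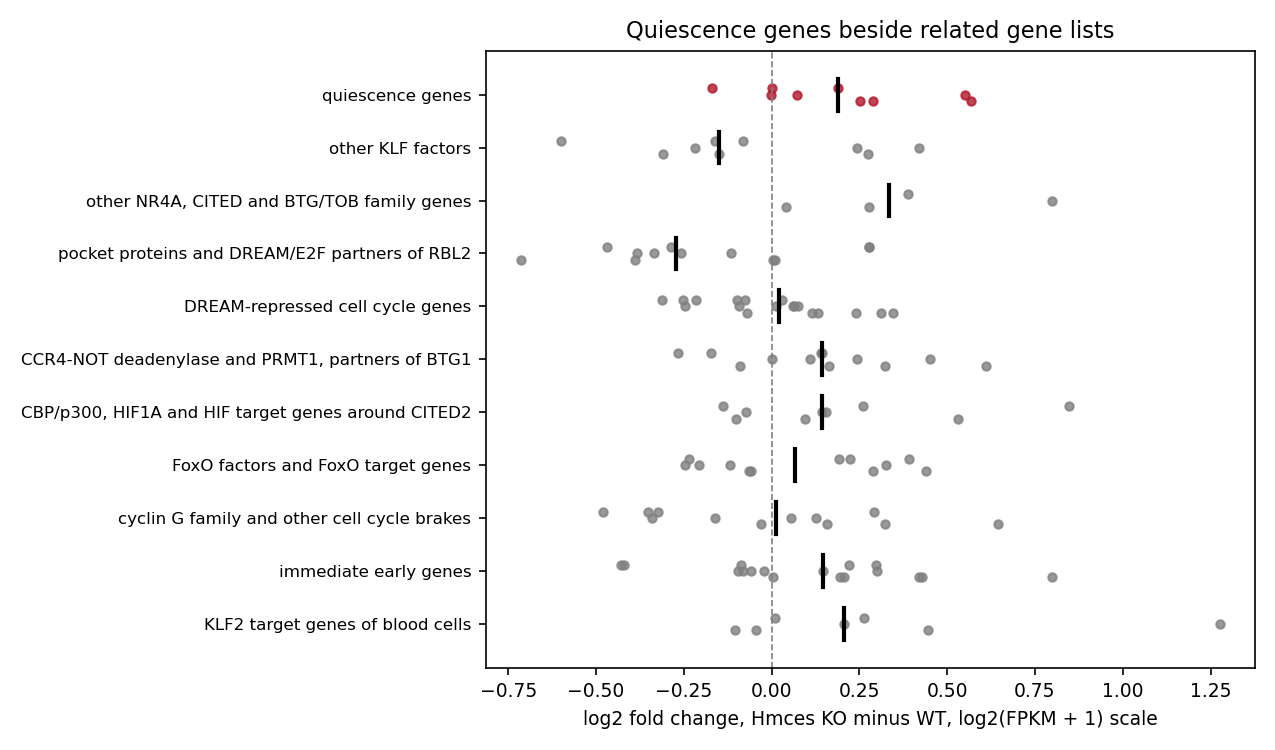
Log2 fold change (Hmces knockout minus WT, log2(FPKM + 1) scale) of the tested genes of the quiescence set and of the 10 lists of relatives, partners, targets and immediate early genes (cell marker lists are not plotted), 1 point per gene, with a black bar at the list's median; the quiescence genes are in red. Among these lists the medians lie between -0.27 (pocket proteins and DREAM/E2F partners) and 0.33 (other NR4A, CITED and BTG/TOB genes), and that of the quiescence genes is 0.19.

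Klf2, Klf4, Klf6, Nr4a1, Nr4a2 and Btg1 are also known to respond to the handling of cells, so immediate early genes were set beside them. Summed over 21 such genes, their level was 3089, 2893 and 3203 FPKM in the knockout libraries, against 3095, 3216 and 2543 FPKM in the WT libraries, so that the groups overlapped. WT replicate 3, where Nr4a1 and Klf2 were lowest, had the lowest sum, and the part of this in their values was not tested. Fos alone was at 827 ± 58.4 FPKM in knockout and 826 ± 91.5 FPKM in WT cells (SD, n = 3 each). Of 17 tested immediate early genes, 10 had a positive log2 fold change (median 0.15) and none was called. Btg2 and Egr1 had unadjusted p-values under 0.05, with Egr1 at 48.0 ± 9.63 FPKM in knockout and 34.9 ± 1.09 FPKM in WT cells (limma adjusted p = 0.532). Btg2, Nr4a3 and Klf10 stand both in this list and in a family list.

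Markers of neutrophils moved with genotype. The 16 neutrophil and granule markers summed to 18865 to 25293 FPKM in knockout and 6638 to 10391 FPKM in WT libraries, all 16 had a positive log2 fold change, and 4 (Hp, Anxa3, Mpo and Ctsg) were called higher, where 0.104% of all genes were. None of these 4 was called without knockout replicate 2 (limma adjusted p from 0.0788 for Hp to 0.290 for Ctsg), without knockout replicate 3, without WT replicate 1, with the replicate number as a block or with no filter on low values, while their log2 fold changes stayed positive. Without knockout replicate 1 or WT replicate 2, Hp alone of the 4 was called. The 14 monocyte and macrophage markers summed to 831 to 1248 FPKM in knockout and 697 to 788 FPKM in WT libraries. Lyz2 made up the largest part, at 890 FPKM in knockout and 619 FPKM in WT libraries (means). Of 12 tested, 5 had a positive and 7 a negative log2 fold change (median -0.05), and 0 were called. The unadjusted p was under 0.05 for 2 higher (Lyz2 and Ly6c2) and 1 lower (C1qc, at 2.05 FPKM in knockout and 10.7 FPKM in WT libraries). KLF4, KLF2 and NR4A1 are also expressed in monocytes and KLF2 and KLF4 in endothelium. Of 10 endothelial and stromal markers, 5 were tested, 4 of them positive and none with an unadjusted p under 0.05, and the list summed to 62.6 to 73.2 FPKM in knockout and 49.5 to 71.0 FPKM in WT libraries. The largest parts of this sum were Pecam1, Emcn and Pdgfrb. Their means were 25.6, 25.1 and 13.96 FPKM in knockout and 22.3, 19.3 and 9.27 FPKM in WT cells. The defining endothelial genes Cdh5 and Kdr, of the same list, were at 0.113 and 0.441 FPKM in knockout and at 0.0334 and 0.287 FPKM in WT cells (means). Summed levels were 793 to 993 FPKM in knockout and 847 to 953 FPKM in WT libraries for 10 erythroid markers, and 611 to 1105 FPKM in knockout and 979 to 1387 FPKM in WT libraries for 8 megakaryocyte markers. They were 69.1 to 129 FPKM in knockout and 59.6 to 75.5 FPKM in WT libraries for 8 B cell markers, and 375 to 468 FPKM in knockout and 303 to 430 FPKM in WT libraries for 8 T and NK cell markers. Single genes made up most of 2 of these sums in both genotypes, and the largest part of the others. Pf4 was the largest part of the megakaryocyte sum, at 382 FPKM in knockout and 686 FPKM in WT libraries (means). Cd79b was the largest part of the B cell sum, at 49.6 and 47.9 FPKM (means). Car2 was at 720 FPKM in knockout and 743 FPKM in WT libraries in the erythroid list, and Nkg7 at 416 and 355 FPKM in the T and NK cell list (means). The 14 LT-HSC markers summed to 1891 to 1983 FPKM in knockout and 1763 to 2160 FPKM in WT libraries, and 5 progenitor markers to 1136 to 1169 FPKM in knockout and 911 to 1077 FPKM in WT libraries. Ifitm3 made up most of the LT-HSC marker sum, at 1083 FPKM in knockout and 1196 FPKM in WT libraries (means). No gene of these 6 lists was called. An unadjusted p under 0.05 was found for 2 LT-HSC, 2 progenitor and 2 B cell markers, all higher in knockout. It was also found for 2 T and NK cell markers (1 higher and 1 lower), 1 megakaryocyte marker (lower) and 0 erythroid markers. In sorted bulk cells, fewer cells of a type and less RNA per cell cannot be told apart, and the part of other cells in the levels of the 9 genes was not tested.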

How the data were processed

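RNA sequencing libraries from 3 Hmces knockout and 3 WT samples of LT-HSCs were used, made per the labels' protocols from 1500 sorted cells each, with 500 pg of cDNA per library and paired reads of 150 bp. The labels give 3 libraries per genotype, but the series' design text mentions duplicates. The FPKM values are those deposited by the authors, 1 column per library. TopHat2 2.1.1, Cufflinks 2.2.1 and mm9 are named per the submitters' processing notes, while the sources used here do not give options, annotation or use of strand. FPKM divides by the mapped fragments of each library, so levels are relative to them, and no count model was fitted.

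The 11532 of 23235 genes whose FPKM averaged 1 or more were fitted as log2(FPKM + 1) with limma 3.58.1 in R 4.3.3 (mean-variance trend, genotype as the only term, two-sided, Benjamini-Hochberg over all genes tested, threshold 0.05). All 9 members passed the filter. The log2(FPKM + 1) scale understates the change of low genes. Depth was estimated from the spacing of the lowest values, with an assumed fragment length of 200 nt, and fragments per gene use its longest GENCODE M21 transcript, which may differ from the authors' annotation; these figures cover counting error only. Promoters came from RefSeq (GRCm38.p6), matched by symbol for all 9 members. Table symbols were matched to RefSeq directly for 20652 genes and by synonym for 2370.

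The members and the 19 other lists were chosen with earlier results of these data known, so no p-value is given for a list's sum. Genes named from those lists are the called ones or the 2 with the smallest p, except 1 that is not reported here; other named genes (Klf10, Klf13, Klf1, Fos, Rbl1, Rb1, Nr4a3, the named cell markers) were chosen after their values were seen.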

Additional observations from a re-analysis of the deposited data

How the results depend on the processing

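None of the 9 genes was called under any of the 16 alternatives run, with all libraries or with 1 left out, and the lowest adjusted p was 0.46 (Nr4a2, without knockout replicate 1). Over all genes, 13 were called, against 1 with no filter on low values, where the 18853 genes above 0 in any library were tested. The number was 6 with a single prior variance in place of a trend, 20 with robust estimation and 32 with small RNA genes left out. With 1 library left out it was 2 to 19 (5 without knockout replicate 2, 2 without knockout replicate 3 and 7 without WT replicate 2). With the replicate number as a block, 2 genes and none of the 9 were called; same-numbered libraries had correlations of deviations between 0.0105 and 0.0803 across genes, so the numbers were not taken to pair them. Klf2, Klf6, Nr4a1, Nr4a2, Btg1 and Rbl2 kept their sign throughout. Klf4 ranged from -0.14 to 0.37 with 1 library left out. Cited2 was at -0.000531 with log2(FPKM + 0.1), -0.0209 with quantile normalization and -0.29 to 0.16 with 1 library left out. Ccng2 was at 0.05004 with log2(FPKM + 5), 0.0218 with upper quartile scaling and -0.35 to 0.63 with 1 library left out. The filter at a mean of 5 FPKM removed Klf4 and Nr4a2. The log2 ratio of knockout to WT was 0.17 for the members' sum (0.06 to 0.26 with 1 library left out) and 0.05 for the immediate early sum (-0.0436 to 0.12). The cause of these shifts was not tested. Of the 9 genes, Klf4 had the fewest estimated fragments, 18 to 66 per library.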
